A study of Mus musculus with 12 samples.

Results

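The glutathione S-transferase family was followed through 10 genes, taken by symbol from the 54532 genes of the deposited expression table, namely Gsta2, Gsta3 and Gsta4 of the alpha class, Gstm1, Gstm2 and Gstm5 of the mu class, Gstp1 of the pi class, Gsto1 of the omega class, Gstt1 of the theta class and the microsomal enzyme Mgst1. All 10 were in the table and all 10 passed the filter on low counts. Gsta3 passed it only through the siKEAP1 and siKEAP1/siCCNF libraries, so that some difference between groups was built into its place among the genes tested.

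The cells were C2C12, an immortalised mouse myoblast line that can be driven to form myotubes by lowering serum. Cells of the siCONTROL group received a control siRNA, those of siKEAP1 and siCCNF one that targets Keap1 or Ccnf, and those of siKEAP1/siCCNF both targeting siRNAs, given at 30 nM, and poly(A) RNA was sequenced after 48 h from 3 biological replicates per group, 12 libraries in all. The question was what loss of KEAP1, of CCNF or of both does to gene expression in myoblasts. The groups differ only in siRNA, all 12 libraries come from this 1 cell line, and an siRNA lowers its target without removing it. Keap1 mRNA fell from 87.8 CPM (reads on the gene per 1000000 assigned reads of the library) in siCONTROL to 12.6 in siKEAP1, but only to 24.1 in siKEAP1/siCCNF, where every library held more Keap1 mRNA than any siKEAP1 library. The difference between these 2 groups passed the test (log2 difference 0.93, SE 0.0836, edgeR adjusted p = 1.07e-06). Ccnf was at 81.1 CPM in siCONTROL, 59.4 in siKEAP1, 20.5 in siCCNF and 24.5 in siKEAP1/siCCNF. Between 18464209 and 37743198 reads were assigned to genes per library. All 6 myoblast markers were above 1 CPM in every group, with a sum of 1330 to 1531 CPM in siCONTROL, 850 to 874 in siKEAP1, 696 to 733 in siCCNF and 690 to 756 in siKEAP1/siCCNF. Markers of differentiating muscle summed to 44.2 to 109 CPM in siCONTROL, 1.70 to 2.23 in siKEAP1, 11.04 to 16.8 in siCCNF and 3.25 to 3.49 in siKEAP1/siCCNF, and their part in the results on glutathione S-transferases was not tested. The 5 hepatocyte markers, for a cell type rich in these enzymes, summed to at most 0.264 CPM in any library, and Alb, Ttr, Serpina1a and Cyp2e1 had 0 counts throughout. Among 4 macrophage markers Cd68 was higher in siKEAP1 (5.34 to 9.97 CPM, against 0.672 to 1.36 in siCONTROL), while Ptprc and Adgre1 had 0 to 3 counts in every library. Among 3 adipocyte markers Fabp4 was higher in siKEAP1 (2.15 to 3.32 CPM, against 0.0448 to 0.108 in siCONTROL), while Adipoq and Plin1 had at most 2 counts. The 3 endothelial markers summed to at most 1.38 CPM. In bulk RNA, a change in the make-up of the culture and a change of RNA per cell cannot be told apart.

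Glutathione S-transferases join the tripeptide glutathione to electrophiles such as oxidised lipids and drugs, and the conjugates are then pumped out of the cell and trimmed to mercapturates. The alpha, mu, pi, omega and theta classes are soluble enzymes, while the microsomal class consists of unrelated membrane proteins that carry out the same kind of reaction. Several of the genes are textbook targets of NRF2, a transcription factor that binds antioxidant response elements together with small MAF proteins. KEAP1 is the adaptor through which a CUL3 ubiquitin ligase marks NRF2 for degradation, and CCNF, or cyclin F, is the substrate-binding subunit of another ubiquitin ligase.

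In the coordinates of the table, which are those of GRCm38, Gsta2 (ENSMUSG00000057933) lies at chr9:78331018-78355788 on the minus strand and Gsta4 (ENSMUSG00000032348) at chr9:78182774-78209349 on the plus strand. The mu genes lie together on chromosome 3, with Gstm1 (ENSMUSG00000058135) at chr3:108012255-108017973 and Gstm2 (ENSMUSG00000040562) at chr3:107981702-107986453, both on the minus strand, and Gstm5 (ENSMUSG00000004032) at chr3:107895821-107898686 on the plus strand. Gstp1 (ENSMUSG00000060803) at chr19:4035407-4037921 and Gsto1 (ENSMUSG00000025068) at chr19:47854970-47864790 share chromosome 19. Gsta3 (ENSMUSG00000025934) lies at chr1:21240589-21265661, Gstt1 (ENSMUSG00000001663) at chr10:75783813-75798584 and Mgst1 (ENSMUSG00000008540) at chr6:138140316-138156755. The table lists every one as protein coding.

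The stretch from 250 bases before to 50 bases after the start of transcription was available for 9 of the 10 genes from RefSeq (GRCm38.p6), Gsta4 being the exception. A gene with several starts has several such stretches, and the 9 genes have 11, with 2 each for Gstm1 and Mgst1. They were searched on both strands for the core of the antioxidant response element, TGACNNNGC, where N is any base. The core was found in 3 of the 11 stretches, 1 each of Gsta3, Gstm5 and Mgst1, while 12.4% of 32851 such stretches from 27025 mouse genes hold it. Only the match of Gsta3 goes on with an A, as TGACNNNGCA, which 3.04% of all stretches do. The 3 sequences are shown because these genes sit at opposite ends of the response described below, and capitals mark the match. The Gsta3 stretch is chr1:21240335-21240634 on the plus strand, with the match starting 121 bases before the start of transcription. The Mgst1 stretch is chr6:138140277-138140576 on the plus strand, where the match lies on the minus strand and its leftmost base is 56 bases before the start. The Gstm5 stretch is chr3:107895604-107895903 on the plus strand, with the match starting 42 bases before the start.
Gsta3: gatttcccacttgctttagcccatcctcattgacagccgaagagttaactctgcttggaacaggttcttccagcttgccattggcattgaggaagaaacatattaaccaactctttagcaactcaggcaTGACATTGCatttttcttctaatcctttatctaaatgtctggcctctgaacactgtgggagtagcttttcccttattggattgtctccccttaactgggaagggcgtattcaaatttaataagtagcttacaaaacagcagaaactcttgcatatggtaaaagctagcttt
Mgst1: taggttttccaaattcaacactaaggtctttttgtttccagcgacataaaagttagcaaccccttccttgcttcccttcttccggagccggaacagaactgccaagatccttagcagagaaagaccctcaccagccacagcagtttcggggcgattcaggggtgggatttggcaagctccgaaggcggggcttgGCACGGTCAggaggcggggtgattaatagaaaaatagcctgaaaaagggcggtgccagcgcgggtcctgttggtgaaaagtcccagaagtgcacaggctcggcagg
Gstm5: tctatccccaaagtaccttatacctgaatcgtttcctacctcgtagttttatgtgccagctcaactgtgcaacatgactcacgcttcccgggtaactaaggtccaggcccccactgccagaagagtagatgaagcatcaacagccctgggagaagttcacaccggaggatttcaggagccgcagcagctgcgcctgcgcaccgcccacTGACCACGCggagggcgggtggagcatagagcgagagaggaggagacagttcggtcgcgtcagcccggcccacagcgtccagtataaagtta
GCGTG, the core of the element bound by the aryl hydrocarbon receptor, was found in 5 of the 11 stretches, both of Gstm1, which overlap and share the match, and those of Gsta2, Gstm5 and Gstp1, against 32.4% of all stretches. In Gstm5 one of its matches overlaps the TGACNNNGC match. These are matches of letters within 300 bases. They do not show binding, and elements farther from the start are outside the search.

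KEAP1 depletion raised 9 of the 10 mRNAs, 7 of them by more than 2-fold, and lowered none. Over all 15122 genes tested, 20.4% were higher and 20.2% lower after siKEAP1, and 7.59% were higher by more than 2-fold. The median log2 change of the 10 genes was 1.88 and that of all genes -0.01. CCNF depletion raised none and lowered 6, where 22.5% of all genes were higher and 25.5% lower, with a median of -0.56 for the 10 genes and 0.01 for all. After the double depletion 6 were higher than in siCONTROL and 1 was lower, against 20.6% and 23.6% of all genes, with a median of 0.48 for the 10 genes. A gene is called here at an adjusted p under 0.05 in edgeR's quasi-likelihood test. Gsta3 is among those called higher after siKEAP1 and after both, although it was tested only through libraries that received siKEAP1. Its calls, here and below, are therefore no added evidence. The 3 comparisons share the siCONTROL libraries and are not independent of each other.

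**Figure D1:**
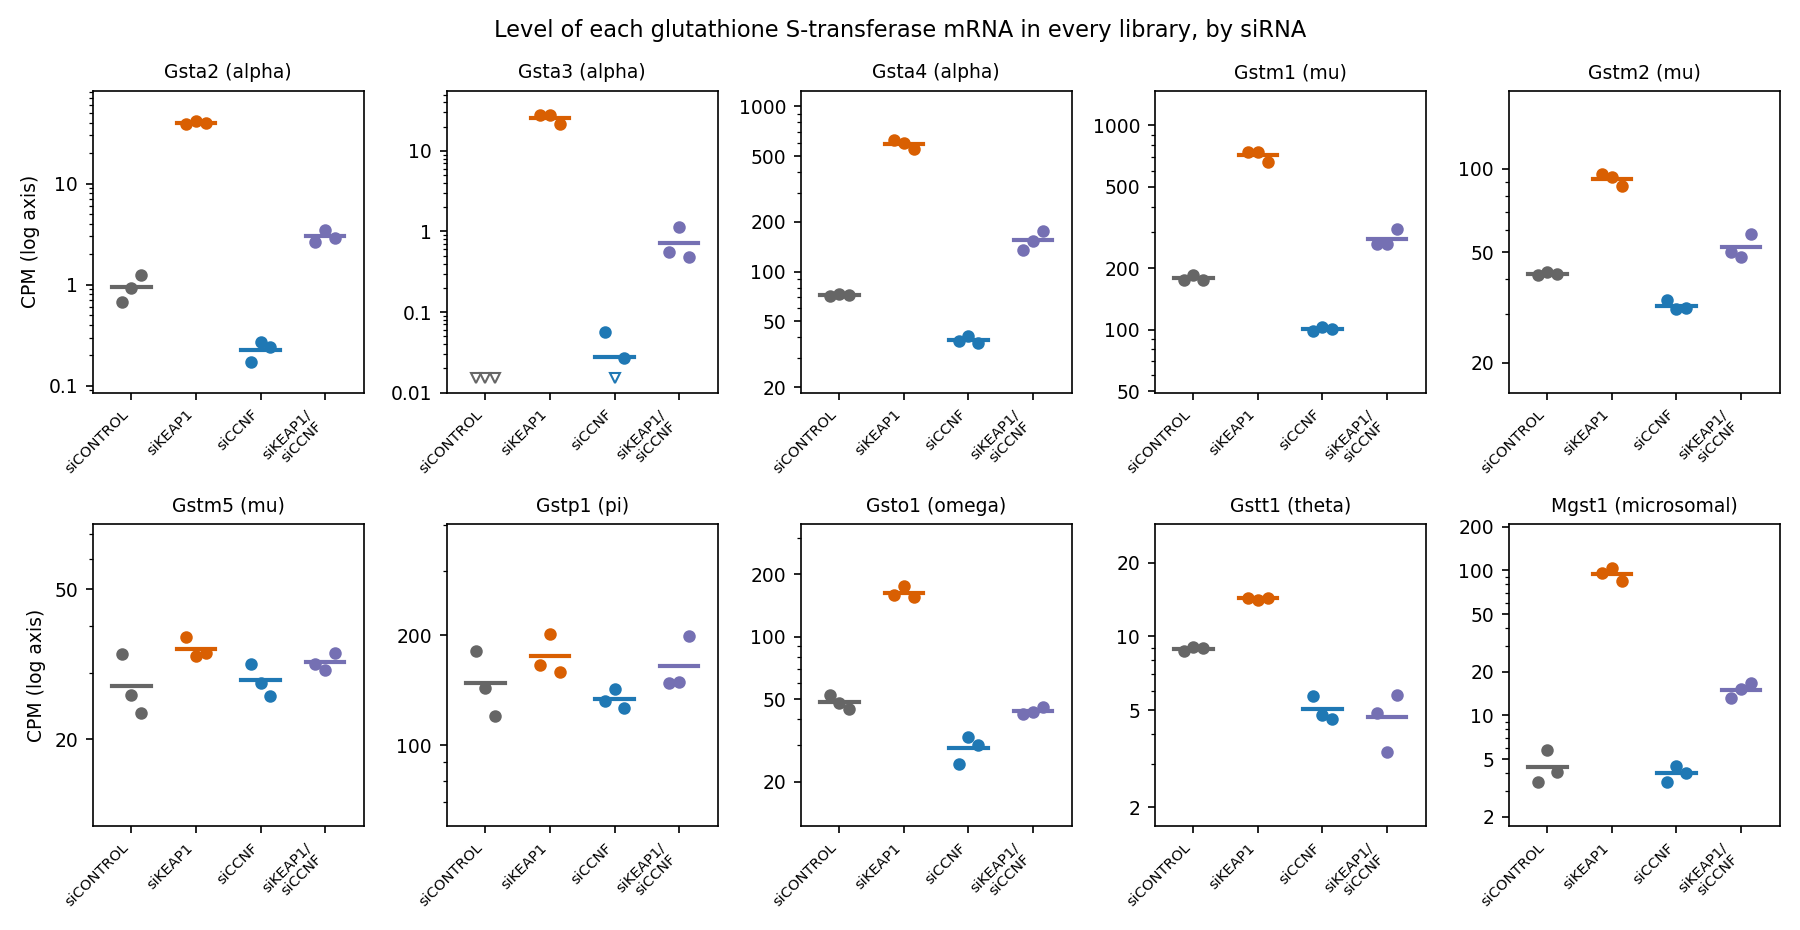
Level of the 10 mRNAs in CPM (log axes that differ between panels) in the 12 libraries, by siRNA. Points are libraries, lines are means of 3 and open triangles mark libraries with 0 counts. The 3 siKEAP1 libraries lie above all others for 8 genes but overlap other groups for Gstm5 and Gstp1, and for Gstt1 the siKEAP1/siCCNF libraries overlap the siCCNF libraries. The share of all genes with such an order was not counted.

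Among the alpha class, Gsta2, a conjugating enzyme that also reduces lipid hydroperoxides, stood at 0.672, 0.922 and 1.25 CPM in siCONTROL and at 39.1, 41.7 and 39.9 CPM in siKEAP1. Depletion of CCNF alone gave 0.171, 0.272 and 0.242 CPM and the siKEAP1/siCCNF libraries 2.66, 3.48 and 2.90 CPM. No group overlapped another. Gsta2 rose 42.4-fold after siKEAP1 (95% interval 32.8 to 54.7, adjusted p = 2.43e-10), fell by 2.05 on the log2 scale after siCCNF (SE 0.294, adjusted p = 7.95e-05) and rose 3.20-fold after both (95% interval 2.39 to 4.29). These rest on few reads outside siKEAP1, with 6 to 9 counts in each siCCNF library. Of the stretches of 50 bases along the Gsta2 transcript, 64.2% also occur in transcripts of other genes, chiefly Gsta1 (44.8%) and Gm10639 (44.5%). How the counting treated reads that fit several genes is not given in the sources used here, so the Gsta2 counts are uncertain in their split from these copies. The copies Gm10639 and Gm3776 were also higher after siKEAP1, from a mean of 0.0801 to 3.82 CPM and from 0.545 to 11.5 CPM.

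Gsta3, another alpha enzyme, was not detected in siCONTROL, with 0 counts in every library. It had 593, 693 and 492 counts in siKEAP1, which is 27.5, 28.1 and 21.6 CPM. The siCCNF libraries had 2, 0 and 1 counts and the siKEAP1/siCCNF libraries 14, 37 and 11. Only the libraries that received siKEAP1 thus held more than 2 counts of this mRNA. Taking 3 counts per library as what 0 counts allow, Gsta3 was at least 174.8-fold higher in siKEAP1 and at least 4.93-fold higher in siKEAP1/siCCNF than in siCONTROL. The siCCNF and siCONTROL libraries were both at the limit of detection. Because the gene was tested only through libraries that received siKEAP1, its calls in these comparisons are no added evidence. None of its 50-base stretches occurs in another gene's transcript, although Gm28836 overlaps the gene on the other strand.

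Gsta4, which is specialised in 4-hydroxynonenal and other products of lipid peroxidation, was the most abundant alpha mRNA. It stood at 71.6, 72.8 and 72.0 CPM in siCONTROL and at 624, 598 and 549.7 CPM in siKEAP1. The siCCNF libraries held 38.1, 40.8 and 37.1 CPM and the siKEAP1/siCCNF libraries 136, 154 and 176 CPM. The 4 groups did not overlap and were ordered siCCNF, siCONTROL, siKEAP1/siCCNF, siKEAP1, with each step past the test. Gsta4 rose 8.19-fold after siKEAP1 (95% interval 7.13 to 9.41, adjusted p = 2.32e-10), fell by 0.90 on the log2 scale after siCCNF (SE 0.0887, adjusted p = 3.07e-06) and rose 2.15-fold after both (95% interval 1.89 to 2.46). No 50-base stretch of it occurs elsewhere.

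The mu class split. Gstm1, the main mu enzyme of many mouse tissues, stood at 176, 186 and 175 CPM in siCONTROL and at 741, 741 and 662 CPM in siKEAP1. Depletion of CCNF alone gave 98.3, 103 and 100.2 CPM and the siKEAP1/siCCNF libraries 263, 263 and 309.7 CPM. The order of the groups was that of Gsta4, again without overlap and with each step past the test. Gstm1 rose 3.99-fold after siKEAP1 (95% interval 3.56 to 4.48), fell by 0.83 on the log2 scale after siCCNF (SE 0.0749) and rose 1.56-fold after both (95% interval 1.39 to 1.74).

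Gstm2, a neighbour of Gstm1 with the same kind of activity, changed by less. It stood at 41.4, 42.6 and 41.7 CPM in siCONTROL and at 96.0, 93.3 and 87.0 CPM in siKEAP1. The siCCNF libraries held 33.8, 31.2 and 31.5 CPM and the siKEAP1/siCCNF libraries 50.1, 48.3 and 58.1 CPM. The groups kept the order seen for Gstm1 and did not overlap. Gstm2 rose 2.20-fold after siKEAP1 (95% interval 1.96 to 2.47, adjusted p = 1.3e-07), fell by 0.38 on the log2 scale after siCCNF (SE 0.0778, adjusted p = 0.00129) and rose 1.24-fold after both (95% interval 1.11 to 1.40, adjusted p = 0.0049). Other transcripts hold 23.1% of the 50-base stretches of Gstm1, mostly Gstm2-ps1 (17.3%) and Gstm3, and 9.36% of those of Gstm2.

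Gstm5, the third mu gene, stood at 33.6, 26.1 and 23.5 CPM in siCONTROL and at 37.2, 33.3 and 33.9 CPM in siKEAP1, where the groups overlapped. Depletion of CCNF alone gave 31.7, 28.2 and 26.1 CPM and the siKEAP1/siCCNF libraries 31.7, 30.4 and 33.7 CPM. Its 1.25-fold rise after siKEAP1 just passed the test (95% interval 1.05 to 1.498, adjusted p = 0.0448), and the call was lost on leaving out any of 9 of the 12 libraries, with adjusted p up to 0.183. The siCCNF to siCONTROL ratio was 1.03 (95% interval 0.863 to 1.23) and the siKEAP1/siCCNF to siCONTROL ratio 1.15 (95% interval 0.962 to 1.38), neither past the test. The antisense gene 4933431E20Rik, which shares 14.4% of the 50-base stretches of Gstm5, rose by 0.97 on the log2 scale after siKEAP1 (SE 0.132, adjusted p = 6.38e-05), and the strand setting of the counting is not given in the sources used here, so reads of Gstm5 and of this gene cannot be told apart there.

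Gstp1, the pi enzyme and the most abundant of the 10 mRNAs in siCONTROL per listed gene length, showed no call in any comparison. It stood at 181, 144 and 120.1 CPM in siCONTROL, 166, 202 and 158 in siKEAP1, 132, 143 and 126 in siCCNF and 148, 149 and 199 in siKEAP1/siCCNF. The siCCNF libraries lay below all siKEAP1 and siKEAP1/siCCNF libraries, and the other pairs of groups overlapped. The siKEAP1 to siCONTROL ratio was 1.18 (95% interval 0.946 to 1.48, adjusted p = 0.22), the siCCNF to siCONTROL ratio 0.902 (95% interval 0.721 to 1.13) and the siKEAP1/siCCNF to siCONTROL ratio 1.11 (95% interval 0.890 to 1.39). The highest values of their groups came from siCONTROL replicate 1 and siKEAP1/siCCNF replicate 3. These are also the libraries in which deviations from the group mean correlated negatively with gene length (r = -0.305 and -0.276 across genes, the others lying between -0.094 and 0.206), and Gstp1 has the shortest listed length of the 10 genes, 757 bases. Without siCONTROL replicate 1 the rise after siKEAP1 passed the test (log2 change 0.40, adjusted p = 0.0284). With all 12 libraries and the gene length trend removed, it was not called. The part of gene length in the Gstp1 values was not tested further. Of the 50-base stretches of Gstp1, 62.3% occur in Gstp2 as well, a gene with 0 to 11 counts per library here, and 45.6% in the pseudogene Gstp-ps.

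Gsto1, an omega enzyme that acts as a thiol transferase and reduces dehydroascorbate, stood at 52.4, 47.8 and 44.7 CPM in siCONTROL and at 159, 175 and 156 CPM in siKEAP1. The siCCNF libraries held 24.4, 32.7 and 29.9 CPM and the siKEAP1/siCCNF libraries 42.6, 43.3 and 46.0 CPM. After the double depletion it was thus within the range of the siCONTROL libraries or just below it. Gsto1 rose 3.38-fold after siKEAP1 (95% interval 2.91 to 3.93, adjusted p = 2.81e-08) and fell by 0.74 on the log2 scale after siCCNF (SE 0.1, adjusted p = 5.15e-05). The siKEAP1/siCCNF to siCONTROL ratio was 0.910 (95% interval 0.784 to 1.06, adjusted p = 0.291). Its 50-base stretches are its own, while Cfap43 overlaps it on the other strand.

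Gstt1, the theta enzyme, which acts on small halogenated compounds, stood at 8.70, 9.01 and 9.01 CPM in siCONTROL and at 14.4, 14.1 and 14.4 CPM in siKEAP1. Depletion of CCNF alone gave 5.73, 4.78 and 4.62 CPM and the siKEAP1/siCCNF libraries 4.88, 3.36 and 5.76 CPM. It was the 1 gene of the 10 that was lower after the double depletion than in siCONTROL, and there it overlapped the siCCNF libraries. Gstt1 rose 1.60-fold after siKEAP1 (95% interval 1.27 to 2.02, adjusted p = 0.00308), fell by 0.82 on the log2 scale after siCCNF (SE 0.16, adjusted p = 0.000929) and fell by 0.95 after both (SE 0.164, adjusted p = 0.000396).

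Mgst1, the microsomal enzyme of the outer mitochondrial membrane and the endoplasmic reticulum, stood at 3.45, 5.75 and 4.05 CPM in siCONTROL and at 96.6, 104 and 84.4 CPM in siKEAP1. The siCCNF libraries held 3.45, 4.51 and 3.999 CPM, which overlapped siCONTROL, and the siKEAP1/siCCNF libraries held 13.2, 15.3 and 16.8 CPM. Mgst1 rose 21.7-fold after siKEAP1 (95% interval 16.9 to 27.9, adjusted p = 8.68e-10) and 3.44-fold after both (95% interval 2.67 to 4.42, adjusted p = 2.4e-06). The siCCNF to siCONTROL ratio was 0.906 (95% interval 0.689 to 1.19, adjusted p = 0.545).

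**Figure D2:**
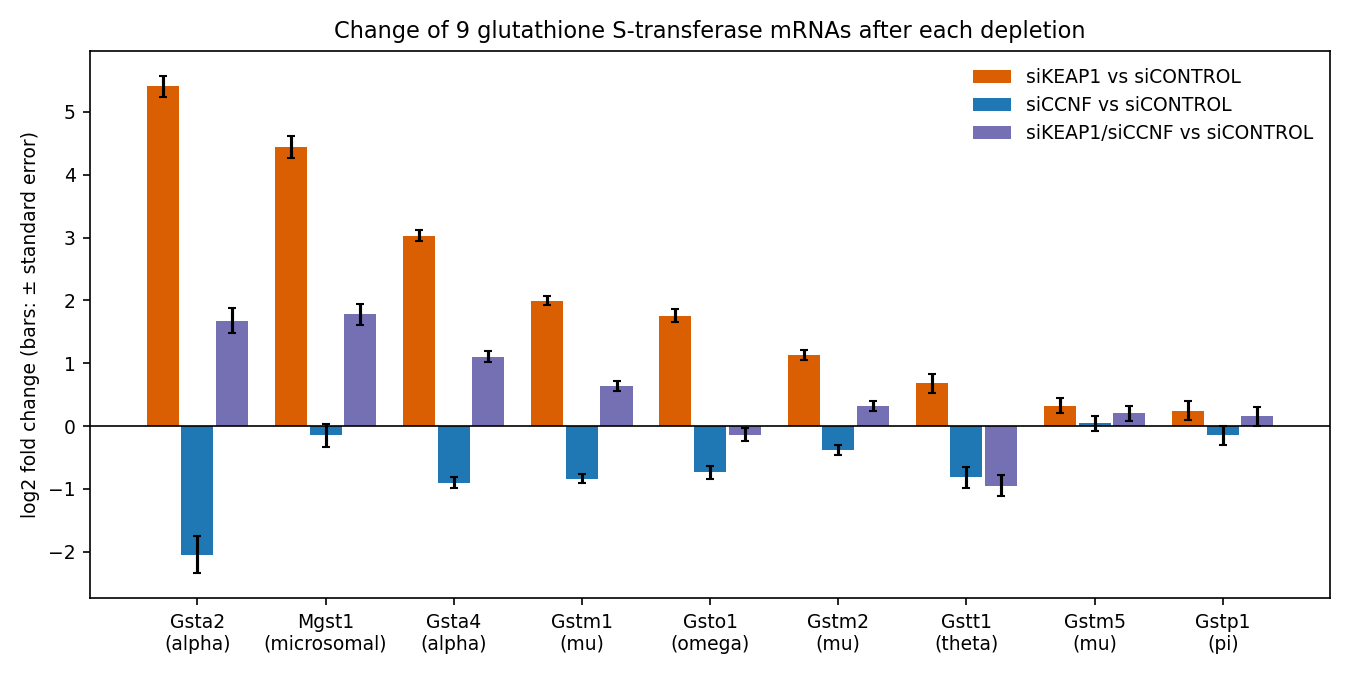
Log2 fold change of 9 of the mRNAs after each depletion, against siCONTROL, in order of the change after siKEAP1. Bars are edgeR estimates with their standard errors, and Gsta3 is left out because siCONTROL had no counts of it. The siKEAP1 bars run from 5.41 for Gsta2 to 0.24 for Gstp1, and only Gstt1 is called lower after the double depletion.

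The effect of losing CCNF on top of KEAP1 was read from siKEAP1/siCCNF against siKEAP1. Of the 10 mRNAs, 8 were lower and none was higher, where 26.9% of all genes were lower and 24.1% higher, and the median log2 difference of the 10 genes was -1.76. Gsta3 kept 2.82% of its siKEAP1 mean, Gsta2 7.49%, Mgst1 15.8%, Gsta4 26.3%, Gsto1 26.9%, Gstt1 32.7%, Gstm1 39.0% and Gstm2 56.6%. Gstm5 and Gstp1 stood at 91.9% and 94.1% without passing the test (95% intervals of the ratio 0.770 to 1.10 and 0.752 to 1.18). The residual Keap1 mRNA, 24.1 CPM in siKEAP1/siCCNF and 12.6 in siKEAP1, differed between these same groups, and its part in these differences was not tested.

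KEAP1 depletion still raised 7 of the 10 mRNAs in CCNF-depleted cells, as siKEAP1/siCCNF against siCCNF, and lowered none. In that comparison 3% of all genes were higher and 2.19% lower, and the median log2 change was 1.08 for the 10 genes. Gsta2 rose 13.2-fold (95% interval 9.36 to 18.7), Gsta4 4.02-fold (95% interval 3.51 to 4.595), Mgst1 3.80-fold (95% interval 2.98 to 4.83), Gstm1 2.78-fold (95% interval 2.48 to 3.11), Gstm2 1.62-fold (95% interval 1.44 to 1.82) and Gsto1 1.52-fold (95% interval 1.31 to 1.76). For Gsta3, which is among the 7 but was tested only through libraries that received siKEAP1, the ratio of summed counts, scaled to library size, was 25.2. Its exact 95% interval of 8.23 to 125.5 covers counting error only. Gstt1 did not pass (ratio 0.915, 95% interval 0.715 to 1.17, adjusted p = 0.757), and neither did Gstm5 (ratio 1.11, 95% interval 0.935 to 1.33) or Gstp1 (ratio 1.24, 95% interval 0.987 to 1.54).

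Whether the response to KEAP1 depletion differed with CCNF was tested as the interaction, the log2 change after KEAP1 depletion in CCNF-depleted cells minus that without siCCNF (siKEAP1 against siCONTROL). It was negative and past the test for 8 of the 10 genes and positive for none, against 10.5% of all genes that were lower and 10.6% that were higher. The response shrank most on the log2 scale for Mgst1, by 2.52 (SE 0.23), and Gsta2, by 1.68 (SE 0.367), among genes with counts in all 4 groups. It fell by 1.16 for Gsto1 (SE 0.14), 1.03 for Gsta4 (SE 0.123), 0.81 for Gstt1 (SE 0.225), 0.53 for Gstm1 (SE 0.105) and 0.44 for Gstm2 (SE 0.109). For Gsta3 the interaction also passed (adjusted p = 0.0224), but the gene was tested only through libraries that received siKEAP1. Its fitted size depends on the small count that the software adds to groups near 0. Leaving out siCCNF replicate 1 or 3 ended the call (adjusted p = 0.158 and 0.0635). Leaving out siCCNF replicate 1 also ended that of Gstt1 (adjusted p = 0.0569). 

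**Figure D3:**
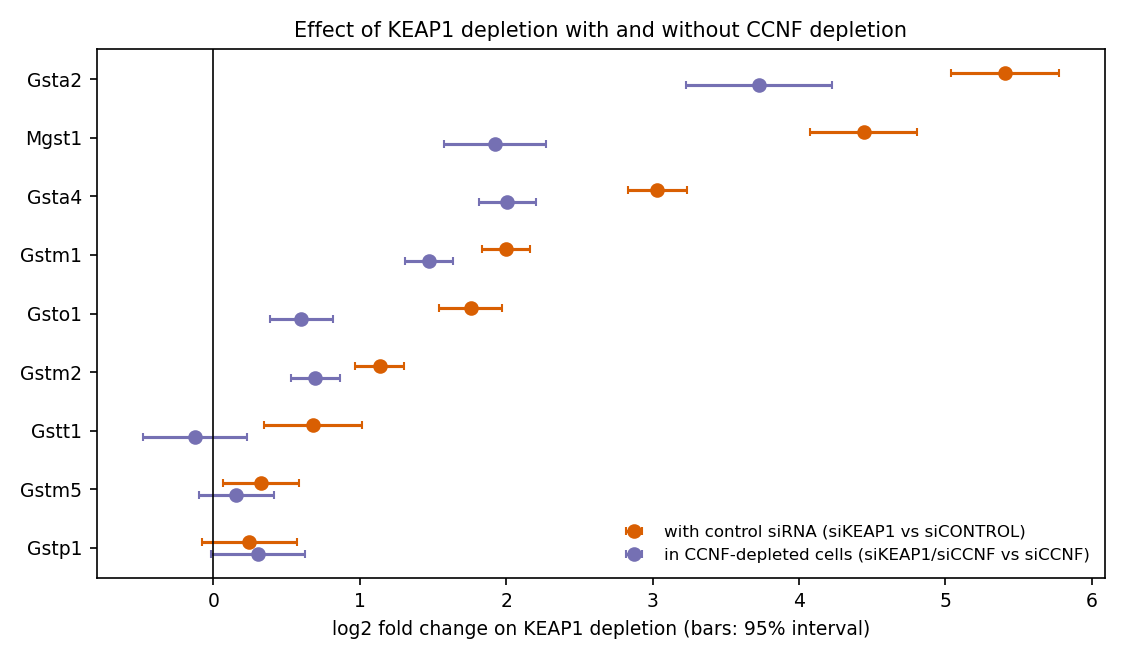
Log2 fold change on KEAP1 depletion without siCCNF (siKEAP1 against siCONTROL, labelled in the figure as with control siRNA) and in CCNF-depleted cells, for 9 of the mRNAs, with 95% intervals. Gsta3 is left out because siCONTROL had no counts of it. The response in CCNF-depleted cells lies below that without siCCNF for 8 genes and above it for Gstp1, and its interval includes 0 for Gstt1, Gstm5 and Gstp1.

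Levels of different genes were compared as FPKM, the authors' read numbers scaled to the listed length of the gene and to library size. The listed length can differ from that of a transcript. It is 4344 bases for Gsta3, 2013 for Mgst1 and 757 for Gstp1, whose longest coding transcripts have 1457, 1167 and 821 bases. The shares below depend on the listed lengths, and other lengths were not tried. The 10 mRNAs summed to 451 ± 45.9 FPKM in siCONTROL (SD, n = 3), 1441 ± 91.3 in siKEAP1, 334 ± 14.6 in siCCNF and 618 ± 79.3 in siKEAP1/siCCNF. The ranges of the 4 groups did not overlap. In siCONTROL Gstp1 made up 42.8% ± 4.59 of the sum, followed by Gstm1 at 26.9% ± 2.75 and Gsta4 at 12.6% ± 1.29, while Gsta2 and Mgst1 made up 0.182% ± 0.0733 and 0.488% ± 0.144. In siKEAP1 the order was Gstm1 at 33.6% ± 0.401, Gsta4 at 32.3% ± 1.07 and Gstp1 at 16.0% ± 1.42, with overlapping ranges for the first pair (33.2% to 34.0% and 31.2% to 33.3%). Gsta2 and Mgst1 reached 2.37% ± 0.145 and 3.26% ± 0.148, so that the genes with the largest fold changes remained minor parts of the pool. In siCCNF Gstp1 made up 52.4% ± 0.905. In siKEAP1/siCCNF Gstp1 made up 35.0% ± 1.76 and Gstm1 30.5% ± 0.904.

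**Figure D4:**
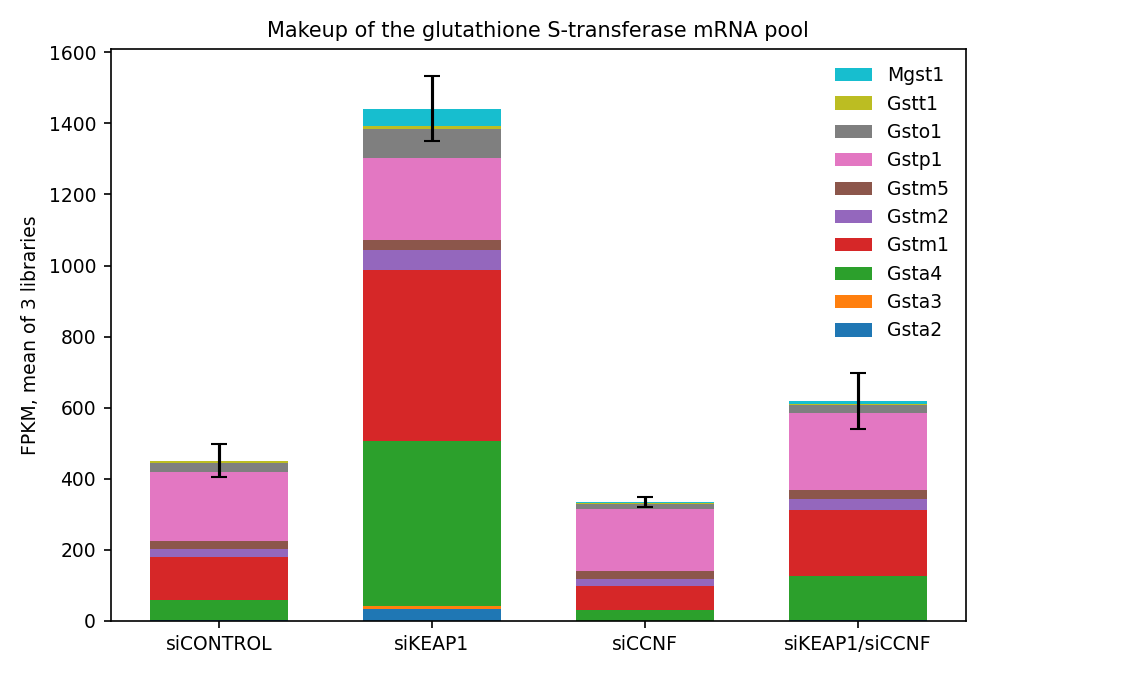
FPKM of the 10 mRNAs stacked by group, means of 3 libraries, with the SD of the sum as error bars. The sum is 451 in siCONTROL, 1441 in siKEAP1, 334 in siCCNF and 618 in siKEAP1/siCCNF, and Gsta4 and Gstm1 fill most of the siKEAP1 column while Gstp1 is the largest block of the siCONTROL and siCCNF columns.

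The rest of the superfamily was read from 21 further genes, of which 19 were in the table under these symbols and 15 were tested. After siKEAP1 10 were higher and 1 was lower, after siCCNF 2 were higher and 7 lower, and after both 5 were higher and 2 lower. Over all genes tested, 20.4% were higher and 20.2% lower after siKEAP1, 22.5% and 25.5% after siCCNF, and 20.6% and 23.6% after both. Ptges, a membrane prostaglandin E synthase of the same microsomal superfamily as Mgst1, rose by 4.94 on the log2 scale after siKEAP1 (SE 0.344), from 0.521 to 16.1 CPM, and by 1.68 after siCCNF (SE 0.402). In siKEAP1/siCCNF Ptges stood at 3.05 CPM, lower than in siKEAP1. Gsta1, the near copy of Gsta2, rose by 4.001 after siKEAP1 (SE 0.383), with 0.538, 3.69 and 1.45 CPM in siCONTROL and 30.6, 33.1 and 24.3 CPM in siKEAP1. Gstm3 was called higher after siKEAP1, with a mean of 0.945 CPM against 0.0661, where siCONTROL had 2, 2 and 0 counts. Gstm4 and Gstm6 were called lower after siCCNF, where they had at most 2 counts in a library. Gstm3, Gstm4 and Gstm6 came through the filter on low counts only because of the siKEAP1 libraries. Any calls of these genes in comparisons that use those libraries, the interaction included, are therefore no added evidence, although the counts of this paragraph include them. The single gene called lower after siKEAP1 was Gstcd, named after its values were seen, with 39.96 CPM in siCONTROL and 32.1 in siKEAP1. Against siKEAP1 alone, 11 of the 15 were lower and 2 higher in siKEAP1/siCCNF, where 26.9% of all genes were lower and 24.1% higher. The interaction was called negative for 4 and positive for 1, against 10.5% and 10.6% of all genes.

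**Figure D5:**
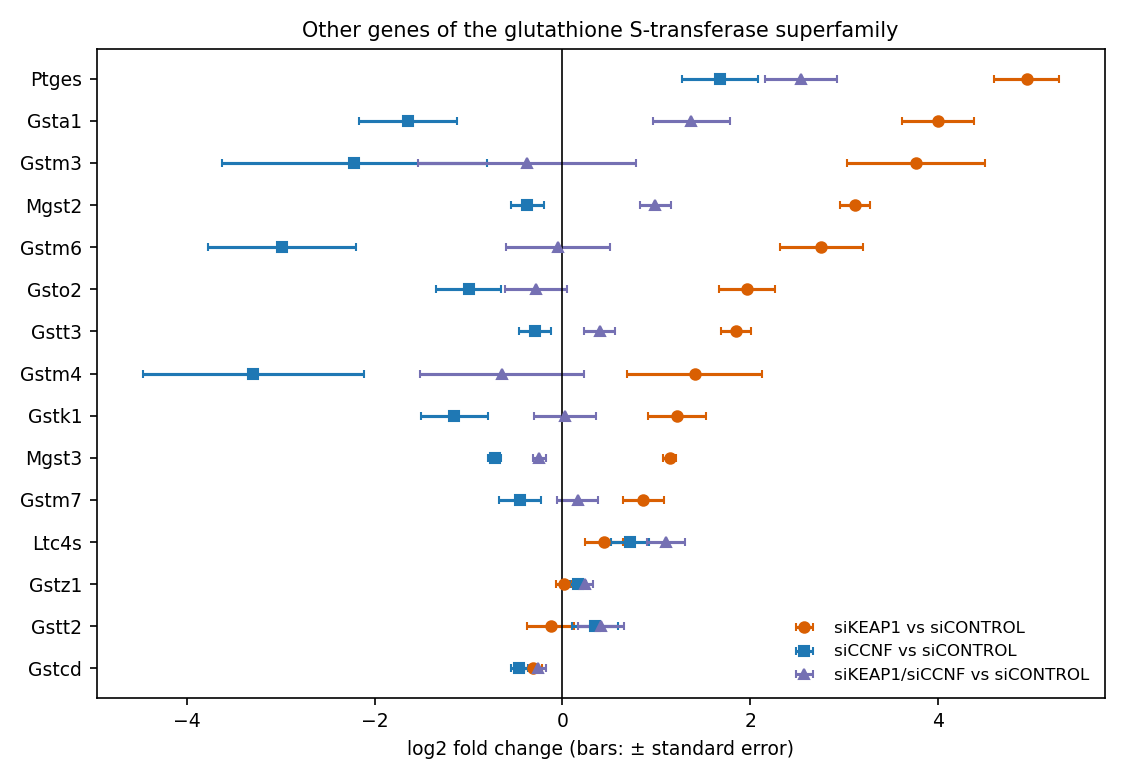
Log2 fold change of the 15 other tested genes of the superfamily after each depletion, against siCONTROL, with standard errors, in order of the change after siKEAP1. Ptges is at 4.94 and Gsta1 at 4.001 after siKEAP1, and Gstm3, Gstm4 and Gstm6 have wide bars because they had at most 35 counts in any library.

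Export and trimming of glutathione conjugates was read from 14 genes, of which 9 were tested. After siKEAP1 5 were higher and none lower, after siCCNF 4 were higher and 3 lower, and after both 4 were higher and 2 lower. The shares of all genes were 20.4% higher and 20.2% lower after siKEAP1, 22.5% and 25.5% after siCCNF, and 20.6% and 23.6% after both. With 9 genes, the counts were not tested against these shares. Abcc3, an ATP-driven pump for conjugates, rose by 4.602 on the log2 scale after siKEAP1 (SE 0.162), from 0.999 to 24.2 CPM, and stood at 2.38 CPM after both, with an interaction of -4.14 (SE 0.231). It was also called higher after siCCNF, at 1.65, 1.75 and 1.77 CPM against 1.08, 1.25 and 0.674 in siCONTROL. Acy3, an aminoacylase that acts on mercapturates, rose by 1.84 after siKEAP1 (SE 0.245) and fell by 1.21 after siCCNF (SE 0.278). Ggt5, a gamma-glutamyl transferase, rose by 0.92 after siKEAP1 (SE 0.305), at 0.822 and 1.56 CPM. Dpep1, a membrane dipeptidase, rose by 1.62 after siCCNF (SE 0.37) and was not past the test after siKEAP1 (log2 change -0.92, adjusted p = 0.15). Of the 9 genes, 6 were lower and 1 was higher in siKEAP1/siCCNF than in siKEAP1, 1 was higher than in siCCNF, and 2 had a negative interaction. Among all genes, 26.9% were lower and 24.1% higher than in siKEAP1, 3% were higher than in siCCNF, and 10.5% had a negative interaction.

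All 8 established NRF2 targets chosen from outside the family were higher after siKEAP1, as were 20.4% of all genes. After siCCNF 5 were lower and 1 was higher, where 25.5% of all genes were lower and 22.5% higher. After both 7 were higher than in siCONTROL (20.6% of all genes). All 8 were lower than in siKEAP1 (26.9% of all genes) and higher than in siCCNF (3%). Gclc, the catalytic subunit of the enzyme that starts glutathione synthesis, rose by 2.91 after siKEAP1 (SE 0.0945), the quinone reductase Nqo1 by 2.82 (SE 0.0639) and the cystine transporter Slc7a11 by 2.63 (SE 0.159). After siCCNF Gclm, the partner of Gclc, fell by 0.96 (SE 0.072) and Nqo1 by 0.87 (SE 0.062), while Hmox1, the haem oxygenase, rose by 0.81 (SE 0.0801). Like Gsto1, Gclm after both depletions did not pass the test against siCONTROL (log2 change -0.10, adjusted p = 0.273). The interaction was negative for 7 of the 8, against 10.5% of all genes.

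Across the 12 libraries, Gsta2, Gsta4, Gstm1 and Gstm2 followed each other with r of 0.986 to 0.997 on log2 CPM, and Mgst1 followed Gsta3 with r = 0.986. These are descriptions over libraries that fall into 4 groups, so that r mostly reflects the group means. Gstp1 and Gstm5 had r of 0.337 to 0.687 with the other 8 genes and 0.753 with each other. Among 11825 genes, those nearest to Gsto1 were Sqstm1 (r = 0.997), Acsbg1 (0.995) and Gclm (0.994), and those nearest to Mgst1 were Gclc (0.993), Gprc5c (0.992) and Spint1 (0.991). Gsta3 was nearest to Gprc5c (0.993), Creg1 (0.988) and Gclc (0.987). The genes nearest to Gsta2 were Gsta4 (0.995), Gstm1 (0.992) and Txnrd1 (0.991), and Gstm2 had Aldh2 (0.990) after Gstm1 and Gsta4. Gstt1 was nearest to Gm3716 (0.980), Gas2l1 (0.978) and P2rx6 (0.975), none of which was near another member by this rule. Gstm5 was nearest to Aimp1 (0.959), Npdc1 (0.932) and Ccdc12 (0.928) and Gstp1 to Pex14 (0.958), Psma2 (0.914) and Fam49b (0.908).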

How the data were processed

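RNA of 12 C2C12 libraries, 3 per siRNA group, was sequenced and analysed for the authors by Novogene. The submitters' processing notes name HISAT2 and GRCm39, whereas the deposited coordinates equal those of GENCODE release M21 (GRCm38) for 98.3% of the 54495 genes shared with it, and for every one of the 10 glutathione S-transferase genes but Gstp1. The counting tool and its handling of strand and of reads shared by paralogs are not given in the sources used here. The authors deposited, per library, read counts per gene without normalization and FPKM values, and also their own fold changes, p-values and group means, which were not used. All per-sample columns were mapped by name. The labels and the study's methods differ on serum. Which Ccnf siRNA was used for sequencing, and whether 30 nM is the total in the double depletion, is not stated.

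Counts were tested with edgeR 4.0.16 in R 4.3.3: filterByExpr (15122 genes kept), TMM factors (0.971 to 1.02), a quasi-likelihood model with 4 group means on all 12 libraries, and Benjamini-Hochberg adjustment across the full table of tested genes. The call threshold was an adjusted p under 0.05. Standard errors are the log2 change divided by the root of F, 95% intervals use the moderated degrees of freedom, and a prior count of 2 was used for log2 CPM. Fold bounds took 3 counts per library as the floor. Intervals from counts and floors cover counting error only. Alternatives were DESeq2 1.42.0, total library sizes, other filters, a replicate block, limma 3.58.1 on log2(FPKM + 1) and log2(FPKM + 0.1), removal of a gene length trend, the compared libraries only, a 2-fold threshold and leaving out each library. The code was tested on simulated data. No pair of replicates was alike within sampling noise (chi-square per degree of freedom 2.84 to 39.9).

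All 10 members are named. Of each further list, counts are given with the up to 3 largest called changes after siKEAP1 and after siCCNF, and for each member the 3 genes most correlated with it. Copies and overlapping genes are named from the transcript comparison. The members and lists were chosen with earlier results of these data known. Symbols Gsta5 and Gsta13 were not matched, and the mouse promoter sequences are from RefSeq.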

Additional observations from a re-analysis of the deposited data

Results flagged for a closer look

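The response to KEAP1 depletion differed between CCNF-depleted cells and cells without siCCNF for 8 of the 10 genes by the edgeR interaction test. All 8 were negative, where 10.5% of all genes tested were lower and 10.6% higher. Gsta3, among the 8, was tested only through libraries that received siKEAP1, so that its call is no added evidence. The difference of the log2 changes was -1.68 for Gsta2, -1.03 for Gsta4, -0.53 for Gstm1, -0.44 for Gstm2, -1.16 for Gsto1, -0.81 for Gstt1 and -2.52 for Mgst1. For Gsta3 the fitted value was -7.94, which rests on groups with 0 to 2 counts per library and is no bound. It depends on the small count that the software adds in fitting, which is not the prior count used for log2 CPM. For these 8 genes each of the 3 siKEAP1/siCCNF libraries lay below each of the 3 siKEAP1 libraries. This order gives the effect of CCNF loss in KEAP1-depleted cells and does not by itself measure the interaction. Such an order was not counted over all genes, of which 26.9% were called lower and 24.1% higher in siKEAP1/siCCNF than in siKEAP1. Keap1 mRNA was itself less depleted in siKEAP1/siCCNF (24.1 CPM) than in siKEAP1 (12.6 CPM), and the part of this in the differences was not tested. Groups of 3 libraries were not searched for single outlying values.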

How the results depend on the processing

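With the 2-fold threshold added, 1 of the 6 calls after siCCNF was left (Gsta2), 4 of the 7 after the double depletion and 5 of the 8 interactions. All other settings left the counts of called members within 1.5 times, from 7 to 10 after siKEAP1. The lower end comes from requiring 10 counts in every library, which leaves 8 members to test. Replicate numbers were not used to pair the samples in the main model. Deviations of libraries with the same number had a median correlation of 0.041, and 4 of 18 pairs were over 0.1. For libraries with different numbers the median was -0.0055, and 5 of 36 pairs were over 0.1. Whether the numbers mark a pairing is not settled by these values. With the replicate block 9 members were called after siKEAP1, 6 after siCCNF and 7 after both, and no call of a member changed. With single libraries left out, changes that were not called altered their sign for Gstp1 after siCCNF (-0.28 to 0.0209), after both against siCONTROL (-0.0027 to 0.32), after both against siKEAP1 (-0.24 to 0.0241) and in the interaction (-0.11 to 0.19), for Gstm5 after siCCNF (-0.0622 to 0.21), for Mgst1 after siCCNF (-0.30 to 0.0852) and for Gstt1 after both against siCCNF (-0.31 to 0.0625). Chosen after seeing the data, leaving out siCONTROL replicate 1 and siKEAP1/siCCNF replicate 3 together, the libraries that deviated with gene length, gave 10 calls after siKEAP1, with Gstp1 at 0.40 (adjusted p = 0.00154), and 8 after both, with Gstm5 at 0.32 (adjusted p = 0.0121). Calls over all genes rose as well, to 7558 of 15545 after siKEAP1 and 7589 after both, from 6133 and 6687 of 15122 in the main model. In that setting Gstp1 after siCCNF was 0.0209 and its interaction -0.26, both of the opposite sign and not called, Gstp1 after both against siKEAP1 was -0.24 (adjusted p = 0.0299) and the interaction of Gstm5 was -0.37 (adjusted p = 0.0334). Without siCONTROL replicate 1 alone, Gstm5 was higher after both (0.36, adjusted p = 0.00857). The rise of Gsta3 in siKEAP1/siCCNF against siCCNF was not called by limma on log2(FPKM + 1), at 0.21 (adjusted p = 0.193), where its low values are compressed by the pseudocount. The rise of Gstm5 after siKEAP1 was not called in the compared libraries alone (0.33, adjusted p = 0.0878). Depth limits Gsta2 and Gsta3 most, since their siCCNF libraries held at most 9 and 2 counts.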
